A study of Mus musculus with 6 samples.

Results

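Matricellular proteins are secreted into the extracellular matrix (ECM) and signal to cells there, and the genes of 5 of them, Spp1, Cthrc1, Postn, Tnc and Sparc, were followed through 6 single-cell RNA-Seq libraries of Pdgfra+ mouse lung fibroblasts (FBs). They were taken by gene symbol, were chosen with earlier results of these data known, and are 5 of the 20496 symbols that all 6 count tables hold. The FBs of all libraries came from Pdgfra-GFP reporter mice, in which GFP reports the Pdgfra gene, and the study used male mice aged 10 to 14 weeks. The lung libraries hold sorted GFP+ cells rather than whole lung. The single-dose groups received 1 oropharyngeal dose of 50 ul PBS or of bleomycin, which the protocol gives as 2 U/kg and the treatment label as 4 U/kg, and their lungs were taken on day 14. The repetitive groups received weekly PBS, or 3 weekly bleomycin doses, of which the first and the second were 1 U/kg and the last 0.5 U/kg, and were taken 2 weeks after it. In the organoid groups, tomato+ type 2 alveolar epithelial cells (AEC2) from tamoxifen-induced SpcCreER donors grew for 2 weeks in Matrigel with GFP+ FBs from PBS-treated lungs (normal) or from lungs given 2 U/kg bleomycin (fibrogenic), at a labelled AEC2 to FB ratio of 10 to 1, while the study's methods put the FBs in excess. Each library pooled 3 mice, and there was 1 library per condition. No difference between conditions could therefore be tested, and the intervals in brackets are exact 95% intervals that cover counting error only.

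Matricellular proteins add little to the mechanical structure of the matrix. They bind integrins, growth factors and collagen, and most are scarce in resting adult tissue and made again during repair. Osteopontin (Spp1) is a phosphoprotein that binds integrins and CD44 and is also a product of macrophages in scarred lung. CTHRC1, named for its short collagen triple helix repeat, marks collagen-producing FBs in fibrotic lung. Periostin (Postn) binds integrins and takes part in collagen assembly, and tenascin C (Tnc) is a large glycoprotein of developing and wounded tissue. SPARC, or osteonectin, binds collagen and is made widely by FBs.

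In GRCm38, with GENCODE annotation, the genes lie at chr5:104435118-104441050 (Spp1, plus strand), chr15:39076932-39087121 (Cthrc1, plus), chr3:54361109-54391037 (Postn, plus), chr4:63959785-64047015 (Tnc, minus) and chr11:55394500-55423183 (Sparc, minus). The predicted gene Gm42793 overlaps Spp1 on the same strand and 8030451A03Rik overlaps Tnc on the other. How far these overlaps enter the counts was not tested. Promoters are shown for Spp1, Postn and Tnc because they are the members whose RefSeq entry lies within a few bases of the GENCODE start. Each is the 250 bases before the RefSeq start in GRCm38.p6, written 5′ to 3′ on the gene's own strand. Spp1 spans chr5:104434861-104435110, Postn chr3:54360857-54361106 and Tnc chr4:64047016-64047265. Capitals mark the matches among 5 short motifs searched on both strands.
Spp1: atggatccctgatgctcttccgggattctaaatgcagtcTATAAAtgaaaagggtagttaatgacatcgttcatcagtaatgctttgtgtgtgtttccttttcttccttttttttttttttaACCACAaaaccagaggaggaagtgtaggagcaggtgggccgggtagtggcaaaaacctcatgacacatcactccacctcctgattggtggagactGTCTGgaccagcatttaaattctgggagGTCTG
Postn: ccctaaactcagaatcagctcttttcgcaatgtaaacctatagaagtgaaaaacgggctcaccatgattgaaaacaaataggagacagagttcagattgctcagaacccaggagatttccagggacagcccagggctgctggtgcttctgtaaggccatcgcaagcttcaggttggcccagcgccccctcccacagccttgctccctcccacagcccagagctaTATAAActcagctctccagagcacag
Tnc: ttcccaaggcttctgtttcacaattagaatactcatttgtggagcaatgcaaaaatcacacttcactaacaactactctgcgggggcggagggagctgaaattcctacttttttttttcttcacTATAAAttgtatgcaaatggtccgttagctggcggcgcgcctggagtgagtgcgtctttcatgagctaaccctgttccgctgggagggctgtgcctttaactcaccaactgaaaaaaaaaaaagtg

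The letters searched for the TATA box were TATAAA. Those for AP-1 sites were TGANTCA. Those for RUNX sites were ACCACA, those for TEAD sites GGAATG, and those for SMAD sites CAGAC. No match overlapped another in these windows. TATAAA stood 211 bases before the start in Spp1, 26 in Postn and 126 in Tnc. The Spp1 window also held ACCACA 128 bases before the start and CAGAC on the reverse strand, read as GTCTG, 33 and 5 bases before it. Of 32851 promoter windows of this length, 12.4% held TATAAA, 14% ACCACA and 42.2% CAGAC. The AP-1 letters, found in 6.75% of windows, and the TEAD letters, found in 12.6%, were in none of the 3. The matches describe letters only. The Sparc entry begins 3103 bases from the GENCODE start and is not printed.

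Barcodes were sorted into classes by the number of markers with a UMI (unique molecular identifier). A class needed at least 3 of its 10 markers and at least 2 more than any other class. The lead of 2 was not required among the FB, smooth muscle and pericyte, and mesothelial classes. There, at least 4 smooth muscle and pericyte or mesothelial markers named the barcode, whatever its number of FB markers. No member was a marker. The library totals ran from 7201081 to 238618743 UMIs. FBs numbered 903 and 798 in the single-dose PBS and bleomycin libraries, 5281 and 9001 in the repetitive ones, and 1843 and 3978 in the normal and fibrogenic organoids. Pdgfra stood at 294 to 584 CPM in the lung FBs and at 73.6 and 68.5 CPM in the organoid FBs. The repetitive bleomycin FBs were shallow, with a median of 2659 UMIs against 10669 in their PBS library, and so were the fibrogenic organoid FBs, with 3794 against 44454. Levels are therefore summed UMIs of a group as CPM, that is counts scaled to 1 common total for every group, and shares of positive barcodes are given after drawing 2000 UMIs from each barcode as well as unthinned. Any 2 libraries shared at most 30 barcode sequences.

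All 5 genes were at least 2-fold higher in bleomycin FBs than in PBS FBs in both lung experiments. In the single-dose libraries 7.26% of 10212 genes reached that fold, and in the repetitive libraries 6.49% of 10830. The median log2 ratio of all genes was 0.06 and 0.09. Fewer cells of a kind and less RNA per cell cannot be told apart in these sums.

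Spp1 had the largest log2 ratio of the 5 in both experiments. It stood at 1.92 CPM [0.991 to 3.35] in single-dose PBS FBs and at 3849 CPM [3811 to 3888] after bleomycin, a log2 ratio of 10.37. In the repetitive FBs it went from 0.222 CPM [0.118 to 0.379] to 1312 CPM [1303 to 1321], a log2 ratio of 10.07. The control values rest on 12 and 13 UMIs, so the folds of 2008 [1149 to 3886] and 5918 [3461 to 11116] are loosely bounded above. Cthrc1 had 2 UMIs in single-dose PBS FBs (0.320 CPM) and 628 after bleomycin (63.4 CPM [58.5 to 68.5]), a ratio of 198 [54.7 to 1642]. In the repetitive libraries it rose from 0.529 CPM [0.359 to 0.750] to 32.5 CPM [31.1 to 34.0], 61.5-fold [43.2 to 90.8]. Both genes were close to absent from PBS FBs.

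Postn rose from 3.20 CPM [1.95 to 4.93] to 56.1 CPM [51.5 to 61.0] after 1 dose, 17.6-fold [11.3 to 28.98]. In the repetitive FBs it rose from 0.870 CPM [0.648 to 1.14] to 42.5 CPM [40.8 to 44.2], 48.8-fold [37.0 to 65.8]. Sparc was present in most PBS FBs already, at 2045 CPM [2010 to 2081] and 1449 CPM [1439 to 1458]. It rose to 6592 CPM [6541 to 6642] and 4708 CPM [4691 to 4726], 3.22-fold [3.16 to 3.29] and 3.25-fold [3.23 to 3.28].

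Tnc rose in both experiments but from unlike control levels. In single-dose FBs it went from 12.3 CPM [9.71 to 15.4] to 301 CPM [291 to 312], 24.5-fold [19.5 to 31.1], and in repetitive FBs from 165 CPM [162 to 169] to 463 CPM [457 to 468], 2.80-fold [2.74 to 2.87]. The repetitive PBS FBs thus held 13.4-fold more Tnc than the single-dose PBS FBs. The immediate early gene Atf3 also stood higher there, at 878 against 275 CPM, while Fos stood at 2675 and 2649 CPM. The part of dissociation, depth or dosing in the Tnc control levels was not tested. Spp1 and Postn were ordered the other way, 8.65-fold and 3.67-fold higher in the single-dose than in the repetitive PBS FBs, and for Cthrc1 the counting intervals of both PBS libraries overlapped.

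**Figure D1:**
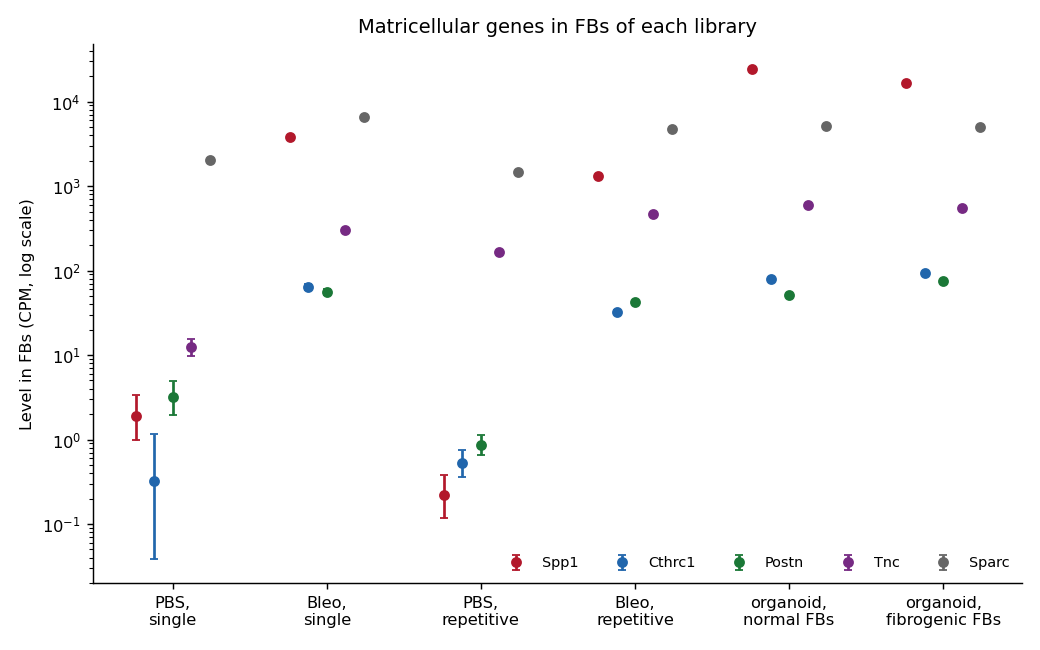
Level of each matricellular gene in the FBs of each library, as CPM on a log axis, with exact 95% Poisson intervals as bars. In both lung experiments all 5 points of the bleomycin library lie above those of its PBS library, and in the organoids no gene differs by 2-fold between normal and fibrogenic FBs.

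T and NK cells are not a known source of Cthrc1, Postn or Tnc, and their levels serve as a reference for RNA counted in the wrong barcode. Activated T cells can make Spp1, so B-gated barcodes are given beside them for that gene. In the single-dose bleomycin library T/NK-gated barcodes (n = 15) held Spp1 at 331 CPM [216 to 485] and Sparc at 395 CPM [268 to 560], and 0 UMIs of Cthrc1, Postn and Tnc, which allows up to 47.0 CPM. In the repetitive bleomycin library (n = 70) they held Spp1 at 35.0 CPM [18.6 to 59.9], Sparc at 105 CPM [74.7 to 144], Tnc at 2.69 CPM [0.0682 to 15.0], and 0 UMIs of Cthrc1 and Postn, which allows up to 9.93 CPM. B-gated barcodes held Spp1 at 318 CPM [169 to 544] in the single-dose (n = 11) and 10.5 CPM [3.41 to 24.5] in the repetitive bleomycin library (n = 90). All 5 FB levels lay above these intervals in both libraries.

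The share of FBs with a UMI gave a different picture for Spp1. After thinning, 56.2% of single-dose bleomycin FBs had a Spp1 UMI (91.7% unthinned), but so did 66.7% of 15 T/NK-gated barcodes, so this share was not above theirs. A single Spp1 UMI thus did not set these FBs apart. The median depth was 11634.5 UMIs in these FBs and 4363 UMIs in the T/NK-gated barcodes. In the repetitive bleomycin library 12.0% of FBs were positive (19.6% unthinned), against 7.94% [2.63 to 17.6] of 63 T/NK-gated barcodes and 1.23% of 81 B-gated ones. Median depths there were 2659 and 4459 UMIs. The PBS shares were 0.349% and 0.0583%.

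The other 4 genes had thinned shares of bleomycin FBs as follows. Cthrc1 was found in 6.36% after 1 dose and 3.23% after repetitive doses (16.8% and 4.74% unthinned), against 0.116% and 0.0971% in PBS. Postn was found in 5.84% and 4.31% (15.4% and 6.44% unthinned), against 0.465% and 0.117%. For both genes the share depended on depth. Tnc was found in 26.6% and 31.9% (54.0% and 38.7% unthinned), against 2.67% and 11.4%, and no T/NK-gated barcode had any of these 3 genes after thinning. Sparc was near ubiquitous, in 97.9% and 98.4% of bleomycin FBs and 94.5% and 88.5% of PBS FBs, and 46.7% and 20.6% of T/NK-gated barcodes also had a UMI.

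Most Spp1 UMIs came from few FBs. The 8 highest of 798 single-dose bleomycin FBs held 58.5% of the Spp1 UMIs, up to 4977 UMIs in 1 barcode, and the 91 highest of 9001 repetitive bleomycin FBs held 88.5%, up to 14609 UMIs in 1 barcode. The median FB had 5 and 0 Spp1 UMIs. For comparison among the members, the highest 80 of the 798 single-dose bleomycin FBs held 91.4% of Spp1, 91.4% of Cthrc1, 92.3% of Postn, 60.4% of Tnc and 32.3% of Sparc UMIs. Spp1, Cthrc1 and Postn were thus concentrated, and Sparc was spread over the FBs. These shares were not thinned and include the unequal depth of barcodes.

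A limit of 10 Spp1 UMIs among 2000, set after the values were seen, was used to describe the FBs with much Spp1. The FBs that reached it were 52 of 770 single-dose bleomycin FBs (6.75% [5.08 to 8.76]) and 154 of 5240 repetitive ones (2.94% [2.50 to 3.43]). The 15 and 63 T/NK-gated and the 10 and 81 B-gated barcodes held at most 2 UMIs, but these groups are small, and none at the limit allows up to 21.8% and 5.69% of T/NK-gated and 30.8% and 4.45% of B-gated barcodes, which includes the FB shares. In the single-dose library 10 FBs held 5 to 9 and 26 held 10 to 29 Spp1 UMIs, and in the repetitive library 87 and 94 did, so the limit cuts through a range. Of the smooth muscle and pericyte-gated barcodes, 6 of 30 [7.71% to 38.6%] and 4 of 109 (3.67% [1.01 to 9.13]) reached it. No PBS FB did (0 of 860 and 0 of 5149).

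**Figure D2:**
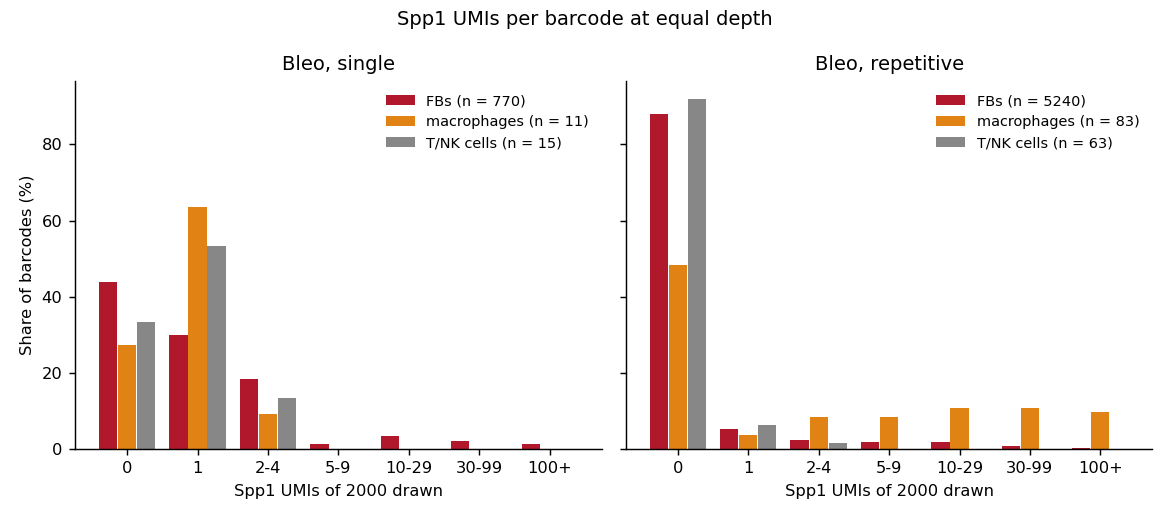
Share of barcodes (percent, vertical axis) by the number of Spp1 UMIs among 2000 drawn (horizontal axis), for FBs, macrophage-gated and T/NK-gated barcodes of both bleomycin libraries. T/NK-gated barcodes stop at 2 UMIs, while 52 of 770 and 154 of 5240 FBs, and 26 of 83 repetitive macrophage-gated barcodes, lie at 10 or more.

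Macrophage-gated barcodes were the other main source of Spp1 after repetitive bleomycin. The 102 macrophage-gated barcodes, 1.03% of that library, held 12.4% of its Spp1 UMIs at 11354 CPM, and 54.9% of them were positive. In the 50 macrophage-gated barcodes of the repetitive PBS library Spp1 stood at 140 CPM (72 UMIs), so the bleomycin level was 81.3-fold higher [64.5 to 104]. Among 10526 genes tested in macrophage-gated barcodes, 7.75% were at least 2-fold higher, and the median log2 ratio was −0.21. At 2000 UMIs, 26 of 83 (31.3% [21.6 to 42.4]) had 10 or more Spp1 UMIs. In the single-dose bleomycin library the 11 macrophage-gated barcodes held 511 CPM [370 to 688], an interval that overlaps that of T/NK-gated barcodes, and none reached 10 of 2000 UMIs. Macrophage-gated barcodes had 0 Cthrc1 and Postn UMIs in both repetitive libraries, and Sparc at 42.7 CPM in PBS (20.2 CPM without its highest barcode) and 109 CPM after bleomycin, the latter near the T/NK level.

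The Spp1 of macrophage-gated barcodes lay almost wholly in a subset. A separate clustering without the 5 genes placed 58 of the 102 barcodes with FB-gated ones, and these held 11847 of the 11923 Spp1 UMIs, at 18309 CPM. Each cluster was named by the class most frequent among its gated barcodes, and FB clusters took in 10358 of the 10737 barcodes of that library before filtering. The other 44 lay outside the FB clusters and held 76 UMIs, at 189 CPM. Without the 58 the level was thus near the 146 CPM of the 49 such barcodes in repetitive PBS. The 58 barcodes had summed FB markers at 425 CPM, against 15889 CPM in FBs and 211 CPM in the other 44. Their summed macrophage markers stood at 5384 CPM, against 63.6 CPM in FBs and 10229 CPM in the other 44. In the 49 barcodes of repetitive PBS, macrophage markers stood at 4834 CPM and FB markers at 89.1 CPM. The part of joint capture of an FB and a macrophage in the 58 barcodes was not tested.

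Genes known from macrophages of scarred tissue were described in the same barcodes. Of 8 listed genes, 7 were at least 2-fold higher after repetitive bleomycin, where 7.75% of all genes were, with a median log2 ratio of 2.87. Without the barcodes that clustered with FBs, a choice made after the values were seen, 4 of 7 tested were higher and 1 was lower, where 9.87% of 10303 genes were higher and 20.8% lower, and the median was 1.10. The lipid-binding gene Fabp5 rose from 107 to 2274 CPM (log2 4.40), the glycoprotein gene Gpnmb from 27.2 to 524 CPM (4.22) and the lipid receptor gene Trem2 from 48.5 to 461 CPM (3.22). Cd63, a lysosomal tetraspanin, rose by 2.51, the elastase gene Mmp12 by 1.82 and the galectin gene Lgals3 by 1.25. Arg1, arginase 1, had 0 UMIs in PBS and 33 after bleomycin, and the tetraspanin gene Cd9 had a log2 ratio of 0.78. Outside the FB clusters Trem2, Mmp12, Cd63 and Gpnmb were still past 2-fold, at log2 ratios of 2.86, 2.27, 1.80 and 1.10, Lgals3 stood at 0.52, and Fabp5 and Cd9 lay below PBS, at −0.67 and −1.57. For all 8 genes most UMIs after bleomycin lay in the barcodes that clustered with FBs, and of the 550 Gpnmb UMIs 25 lay outside them, at 62.0 CPM.

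The gate requires FB markers of every FB. The FBs with 10 or more Spp1 UMIs had a mean of 33.5 (single-dose) and 30.9 (repetitive) FB marker UMIs among 2000, against 40.3 and 32.9 in the remaining FBs. In the repetitive library 25.3% of them [18.7 to 33.0] also had at least 1 UMI of the 10 macrophage markers, against 5.33% [4.73 to 5.98] of the remaining FBs. The mean was 1.33 macrophage marker UMIs, against 14.9 in macrophage-gated barcodes. In the single-dose library 2 of 52 (3.85%) had one, against 7.80% of the remaining FBs. Over all FBs, the summed macrophage markers stood at 54.8 and 65.4 CPM in the single-dose PBS and bleomycin libraries and at 16.7 and 63.6 CPM in the repetitive ones.

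Without every FB that had any macrophage marker UMI at full depth, a choice made after the values were seen, Spp1 fell from 3849 to 2134 CPM in single-dose and from 1312 to 1226 CPM in repetitive bleomycin FBs. The matching PBS levels were 0.889 and 0.219 CPM, and the log2 ratios 10.14 and 9.98. Cthrc1 stood at 55.2 and 33.5 CPM in these bleomycin FBs, Postn at 66.7 and 45.0 CPM, Tnc at 319 and 464 CPM, and Sparc at 6655 and 4719 CPM. All 5 genes were still at least 2-fold higher in both experiments.

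FBs were next divided by marker lists that hold none of the 5 genes. The lists were for lipofibroblasts (LipoFBs), matrix or adventitial FBs (MatrixFBs), myofibroblasts (MyoFBs) and proliferating mesenchymal progenitors (PMPs). The study itself names Spp1 among its MyoFB markers, and it was left out here. MyoFB-gated FBs numbered 13 and 153 after bleomycin, and 1 and 3 in PBS, so that they could not be compared with their controls. In the repetitive bleomycin library they were 1.70% of FBs. With the unequal depth of barcodes included, they held 45.4% of the Cthrc1, 37.9% of the Postn, 23.0% of the Spp1, 8.72% of the Tnc and 4.23% of the Sparc UMIs. Their levels were 481 CPM [450 to 514] for Cthrc1, 525 CPM [492 to 559] for Postn, 9844 CPM for Spp1, 1314 CPM for Tnc and 6495 CPM for Sparc. Without the barcode with most Spp1 the Spp1 level was 7309 CPM. In the single-dose library the 13 MyoFB-gated FBs held Cthrc1 at 458 CPM [371 to 558], Postn at 425 CPM [342 to 522], Spp1 at 9750.2 CPM, Tnc at 982 CPM and Sparc at 7839 CPM. For Cthrc1, Postn and Tnc these were the highest levels among the single-dose bleomycin FB groups. Without the highest barcode of each gene they were 304 CPM for Cthrc1, 351 CPM for Postn and 529 CPM for Tnc, the last near the 492 CPM of the FBs that no list claimed. The highest Spp1 there, 17349 CPM, lay in the 60 FBs that no list claimed, and their Sparc, 7739 CPM [7550.1 to 7930.4], overlapped that of MyoFB-gated FBs [7466 to 8225].

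The 5 genes were at least 2-fold higher after bleomycin in LipoFB-gated and in MatrixFB-gated FBs as well. The gates held unlike shares of the FBs in each condition, LipoFB-gated FBs going from 85.6% to 61.8% and from 85.0% to 51.4%, and MatrixFB-gated FBs from 11.6% to 25.7% and from 12.9% to 33.2%. The gates used unthinned counts, and the repetitive bleomycin FBs were shallower than their PBS FBs. FBs that no list claimed went from 1.97% to 13.0% there. Change in the same cells, change of membership and the part of depth in the gate cannot be told apart. Past that fold were 6.74% and 6.34% of all genes in LipoFB-gated FBs, single-dose and repetitive, and 9.8% and 3.34% in MatrixFB-gated FBs. The levels of Cthrc1 and Postn lay lower in LipoFB-gated than in MatrixFB-gated bleomycin FBs. Cthrc1 stood at 22.4 CPM [18.9 to 26.3] against 101 CPM [86.6 to 116] after 1 dose and at 7.68 CPM [6.83 to 8.60] against 31.3 CPM [28.5 to 34.4] after repetitive doses. Postn stood at 14.0 CPM [11.3 to 17.2] against 135 CPM [118 to 153] and at 10.4 CPM [9.37 to 11.4] against 58.9 CPM [55.0 to 63.1]. The single-dose LipoFB-gated levels of both genes lay below what 0 UMIs allows in the T/NK-gated barcodes of that library. In the repetitive library that limit was 9.93 CPM, above the Cthrc1 level and within the Postn interval. These LipoFB-gated levels are thus not set apart from RNA in the wrong barcode, while the MatrixFB-gated levels lay above the limits.

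Tnc had the opposite order. It stood at 317 CPM [304 to 331] in LipoFB-gated and 89.6 CPM [76.4 to 105] in MatrixFB-gated single-dose bleomycin FBs, and at 511 CPM [504 to 518] and 124 CPM [118 to 130] in the repetitive ones. In PBS lungs Tnc was almost wholly in LipoFB-gated FBs, which held all 77 UMIs of the single-dose and 99.7% of 9685 UMIs of the repetitive FBs, while they were 85.6% and 85.0% of FBs. MatrixFB-gated FBs had 0 Tnc UMIs in the single-dose PBS library, so the bleomycin level was at least 15.5-fold higher by the exact interval of the ratio. They had 5 UMIs in the repetitive PBS library, and Tnc rose there from 0.881 to 124 CPM, 141-fold [60.3 to 435]. In LipoFB-gated FBs Tnc rose 22.2-fold [17.7 to 28.3] and 2.73-fold [2.66 to 2.80].

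Spp1 rose in both groups of both experiments. In LipoFB-gated FBs it went from 1.85 to 2737 CPM after 1 dose and from 0.136 to 547 CPM after repetitive doses. In MatrixFB-gated FBs it went from 1.55 CPM, a single UMI, to 1786 CPM and from 1.06 to 1784 CPM. A single barcode held 44.4% and 58.9% of the Spp1 UMIs in these MatrixFB-gated bleomycin FBs, and without it their levels were 1005 and 736 CPM. The LipoFB-gated levels without their highest barcode were 1981 and 465 CPM. Sparc rose less in MatrixFB-gated than in LipoFB-gated FBs, 2.38-fold [2.27 to 2.50] against 3.36-fold [3.28 to 3.43] after 1 dose and 2.07-fold [2.03 to 2.10] against 3.40-fold [3.37 to 3.43] after repetitive doses. Its PBS levels were higher in MatrixFB-gated FBs, at 2944 and 2426 CPM, than in LipoFB-gated FBs, at 1900.1 and 1328 CPM.

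Proliferating FBs differed between these genes. In the 62 PMP-gated FBs of the repetitive bleomycin library Postn had 4 UMIs (4.49 CPM [1.22 to 11.5]), below the 42.5 CPM of all FBs, whereas Tnc stood at 1045 CPM [979 to 1114] and Cthrc1 at 66.3 CPM [50.5 to 85.5], or 36.1 CPM without its highest barcode. In the 27 PMP-gated FBs of the single-dose bleomycin library Postn stood at 59.3 CPM [41.1 to 82.9], or 35.0 CPM without its highest barcode, and Tnc at 269 CPM [228 to 315], so that the low Postn level was seen in the repetitive library alone.

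The gate named smooth muscle and pericyte barcodes whatever their number of FB markers, so contractile FBs can lie among them. Smooth muscle and pericyte-gated barcodes, which share contractile genes with MyoFBs, numbered 32 in the single-dose bleomycin library. They held Cthrc1 at 298 CPM [259 to 342] and Postn at 291 CPM [252 to 334] there. These were 24.8% and 25.3% of that library's UMIs of both genes, in 3.45% of its barcodes, with unequal depth included. Their Tnc stood at 454 CPM, their Sparc at 6366 CPM and their Spp1 at 6179 CPM, or 3786 CPM without its highest barcode. The single-dose PBS library had 3 such barcodes, so the class was compared in the repetitive libraries alone (28 in PBS, 114 after bleomycin). Tnc rose from 105 to 723 CPM, 6.91-fold [5.15 to 9.48], and Spp1 from 227 to 897 CPM, 3.95-fold [3.22 to 4.88]. Postn stood at 95.5 and 93.1 CPM, a ratio of 0.975 [0.694 to 1.40]. Cthrc1 had 0 UMIs in PBS and 80 after bleomycin (41.1 CPM), of which 63 lay in 1 barcode, and without it the level was 8.89 CPM, near the 8.39 CPM that 0 UMIs allows in PBS. Single barcodes weighed on the other values as well. Without the highest barcode of each gene, the PBS levels of Tnc, Spp1 and Postn were 56.7, 118 and 54.1 CPM, and the bleomycin level of Spp1 was 522 CPM.

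**Figure D3:**
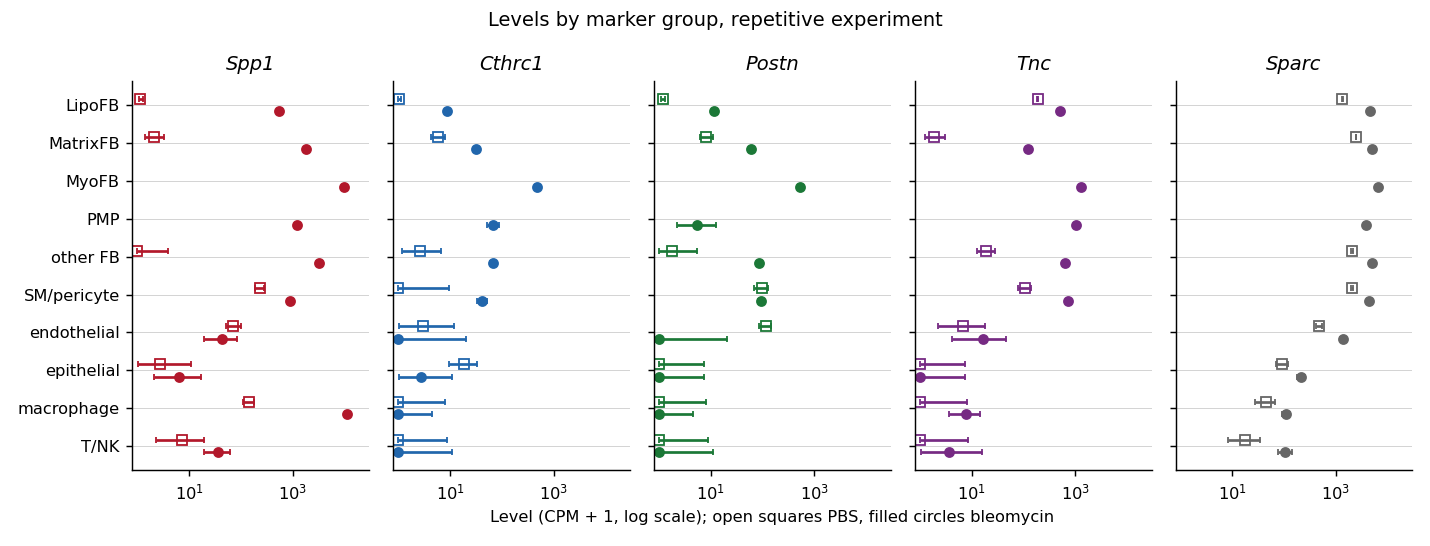
Level (CPM + 1, log axis) of each gene in the gated groups of the repetitive libraries with at least 20 barcodes, open squares for PBS and filled circles for bleomycin, with exact 95% Poisson intervals as bars. Cthrc1 and Postn are highest in MyoFB-gated FBs, at 481 and 525 CPM, and Spp1 in macrophage-gated barcodes, at 11354 CPM. Of these macrophage-gated barcodes, the 58 that clustered with FBs stood at 18309 CPM. The 44 outside the FB clusters stood at 189 CPM, below MyoFB-gated FBs.

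Single groups hide graded change, so bleomycin FBs thinned to 2000 UMIs were also binned by how many of the 10 LipoFB markers they had. From FBs with 0 to 1 markers to FBs with 6 to 10, Spp1 went from 5345 to 345 CPM after 1 dose and from 2607 to 114 CPM after repetitive doses. The 345 CPM lies within the counting interval of the T/NK-gated barcodes of that library, so it is not set apart from RNA in the wrong barcode. Cthrc1 went from 101 to 2.54 CPM (1 UMI) and from 83.1 to 7.08 CPM, and Postn from 149 to 2.54 CPM (1 UMI) and from 124 to 8.26 CPM. These 3 genes were lowest where most LipoFB markers were detected. Tnc ran the other way, from 131 CPM [97.9 to 173] to 381 CPM [322 to 447] and from 299 CPM [273 to 328] to 604 CPM [578 to 630]. With 2 to 3 and 4 to 5 markers it stood at 270 and 394 CPM after 1 dose and at 298 and 324 CPM after repetitive doses. The difference between the end bins was thus not a steady rise. Sparc differed less, at 6018 and 5947 CPM and at 5289 and 4202 CPM.

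Tnc in the repetitive PBS FBs had the same order, with 2.72 CPM [0.0688 to 15.1], 1 UMI, at 0 to 1 LipoFB markers and 214 CPM [203 to 225] at 6 to 10. Along the MyoFB markers Tnc did not rise steadily in these PBS FBs. It stood at 139 CPM with none, 268 CPM with 1, 27.5 CPM (5 UMIs) with 2 and 31.25 CPM (1 UMI) with 3 or more. Among bleomycin FBs all 5 genes were higher with 3 or more MyoFB markers than with none. After 1 dose Spp1 went from 534 to 6667 CPM, Cthrc1 from 28.8 to 205 CPM, Postn from 27.1 to 205 CPM, Tnc from 154 to 500.0 CPM and Sparc from 5146 to 8891 CPM. After repetitive doses Spp1 went from 329 to 1769 CPM, Cthrc1 from 7.70 to 144 CPM, Postn from 14.3 to 155 CPM, Tnc from 209 to 719 CPM and Sparc from 4363 to 5859 CPM. Among bleomycin lung FBs Tnc was thus higher in the highest than in the lowest bin of both lists, as descriptions of 1 library each. Spp1, Cthrc1 and Postn rose there with the MyoFB list and fell with the LipoFB list. In organoid FBs Spp1 fell along the MyoFB markers, from 26704 to 16802 CPM (normal) and from 23395 to 11372 CPM (fibrogenic). Cthrc1 went from 62.2 CPM (49 UMIs) to 102 CPM (70 UMIs) in normal and from 113 CPM (86 UMIs) to 81.6 CPM (127 UMIs) in fibrogenic organoid FBs. Postn, Tnc and Sparc were higher with 3 or more MyoFB markers than with none in both. For Postn in normal organoid FBs this rests on 27 and 34 UMIs, at 34.3 CPM with none and 49.6 CPM with 3 or more. With so few UMIs, no direction is read from the organoid Cthrc1 values or from Postn in normal organoid FBs.

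**Figure D4:**
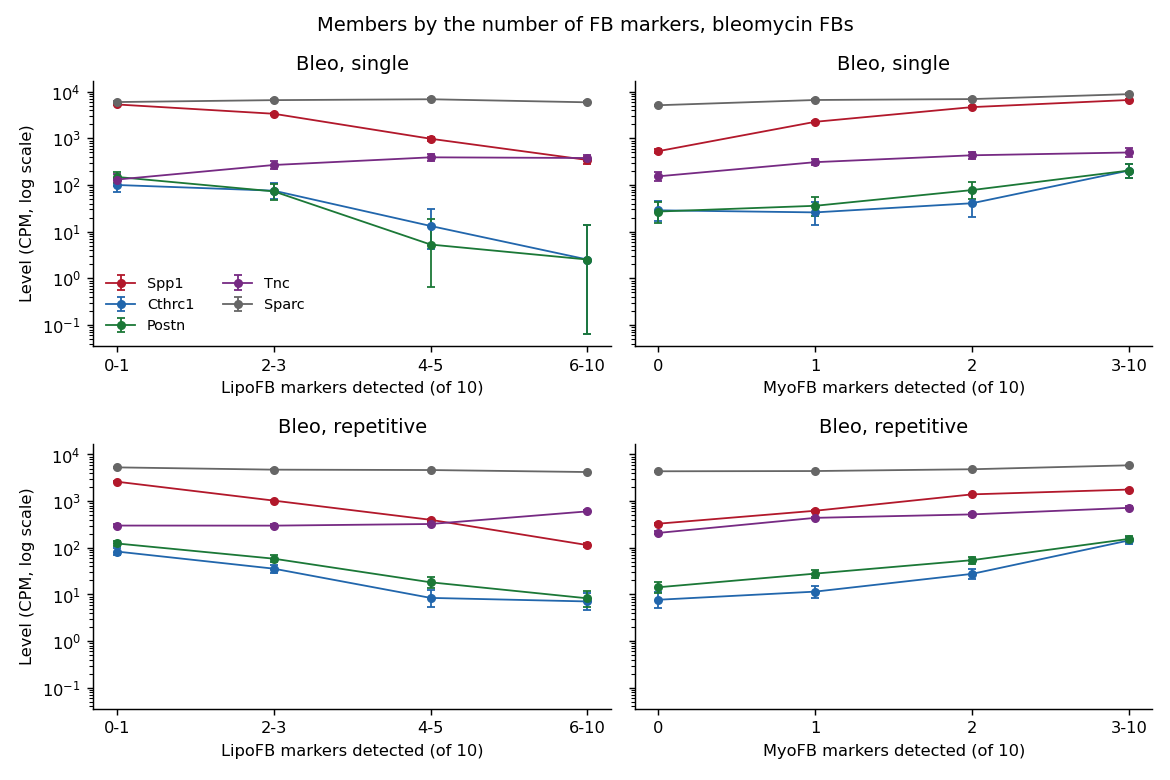
Level (CPM, log axis) of each gene in bleomycin FBs thinned to 2000 UMIs, by the number of LipoFB markers (left) or MyoFB markers (right) detected of 10, with exact 95% Poisson intervals as bars. Cthrc1 and Postn fall from 101 and 149 CPM to 2.54 CPM (1 UMI each) across the LipoFB bins of the single-dose library, and Tnc goes from 131 to 381 CPM.

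Co-detection within bleomycin FBs was described at 2000 UMIs, where a pair of unrelated genes would be found together about as often as the product of their shares. Of the 10 pairs, 9 lay above that product in the single-dose library and 10 in the repetitive library. Nothing is read from this count, since the 4 pairs with Sparc are held close to 1 by its share, and 3 more rest on Spp1 at a single UMI. Of the 3 pairs that remain, Cthrc1 with Postn stood at 5.24 and 6.45 times the product, Cthrc1 with Tnc at 1.30 and 1.69, and Postn with Tnc at 1.34 and 1.54. Of single-dose FBs with Cthrc1, 15 of 49 also had Postn (30.6% [18.3 to 45.4]), against 4.16% of FBs without it. Of repetitive FBs with Cthrc1, 47 of 169 had Postn (27.8% [21.2 to 35.2]), against 3.53%. Pairs with Sparc lay between 0.999 and 1.02 times the product, as its share was close to 100%.

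Tnc was detected in 53.8% of Cthrc1+ and 49.1% of Postn+ repetitive FBs, against 31.1% of FBs without Cthrc1 and 31.1% of those without Postn. After 1 dose these shares were 34.7% [21.7 to 49.6] and 35.6% [21.9 to 51.2], against 26.1%, so that the intervals include the lower value. FBs with 10 or more Spp1 UMIs had Cthrc1 in 26.9% [15.6 to 41.0] after 1 dose and 10.4% [6.06 to 16.3] after repetitive doses, against 4.87% and 3.01% of the remaining FBs. They had Tnc in 53.8% [39.5 to 67.8] and 61.7% [53.5 to 69.4], against 24.7% and 31.0%. Most FBs with much Spp1 therefore had no Cthrc1 UMI at this depth, and most had Tnc.

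In the organoids none of the 5 genes reached 2-fold in either direction, where 0.447% of 10057 genes were at least 2-fold higher and 0.965% lower in fibrogenic than in normal FBs. Spp1 stood at 24599 CPM in normal and 16700.4 CPM in fibrogenic organoid FBs, a ratio of 0.679, and Tnc at 597 and 545 CPM, a ratio of 0.913. Cthrc1 stood at 80.1 and 94.6 CPM (1.18) and Postn at 51.8 and 75.2 CPM (1.45). Sparc stood at 5149.7 and 5008 CPM (0.972). After 2 weeks of culture, FBs that came from PBS-treated lungs thus held all 5 genes at levels above those of freshly sorted PBS FBs. For Spp1, Cthrc1 and Tnc both organoid levels also lay above both bleomycin lungs, and for Sparc they lay between the bleomycin lungs. The organoid and lung libraries differ in culture, sort and depth, which cannot be told apart.

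Spp1 was also spread differently in culture. The highest hundredth of FBs held 7.39% and 17.3% of the Spp1 UMIs, and 77.2% and 70.1% of FBs had 10 or more of 2000 UMIs. The median FB had 30 and 18 Spp1 UMIs among 2000. In the lung the matching median was 1 UMI after a single dose and 0 after repetitive doses.

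Of the 5 genes, Cthrc1 and Sparc were nearest to FB levels in parts of the organoid epithelium. Barcodes with AEC2 markers (1162 and 1044) had Cthrc1 at 21.3 CPM (1058 UMIs) and 19.5 CPM (630 UMIs), which is 26.5% and 20.6% of the FB level. Their Spp1, at 399 and 530 CPM, was 1.62% and 3.18% of the FB level, and their Tnc 1.58% and 2.49%, and Postn stood at 1.23 and 2.44 CPM (0.565 and 1.53 CPM without its highest barcode). Cthrc1 was lower in barcodes with markers of type 1 cells (AEC1, 123 and 146), at 1.95 CPM [0.714 to 4.23] and 1.42 CPM [0.387 to 3.63], which puts it below the AEC2 level by more than counting error. Relative to FBs, Cthrc1 thus stood well above Spp1 and Tnc in the same AEC2-marked barcodes, and the part of RNA from FBs in these levels was not tested.

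Sparc went the other way in the epithelium, with 2321 and 2189 CPM in barcodes with AEC1 markers (45.1% and 43.7% of the FB level) and 400.5 and 477 CPM in those with AEC2 markers (7.78% and 9.52%). Tnc was highest in barcodes with markers such as Cldn4 and Krt19, at 111 and 80.0 CPM, against 9.45 and 13.6 CPM with AEC2 markers. Spp1 was also highest in those barcodes, at 5.80% and 6.04% of the FB level. It stood at 1.62% and 3.18% with AEC2 markers and at 0.508% and 1.70% with AEC1 markers. These epithelial lists of 6 markers were chosen after values of the members had been seen.

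**Figure D5:**
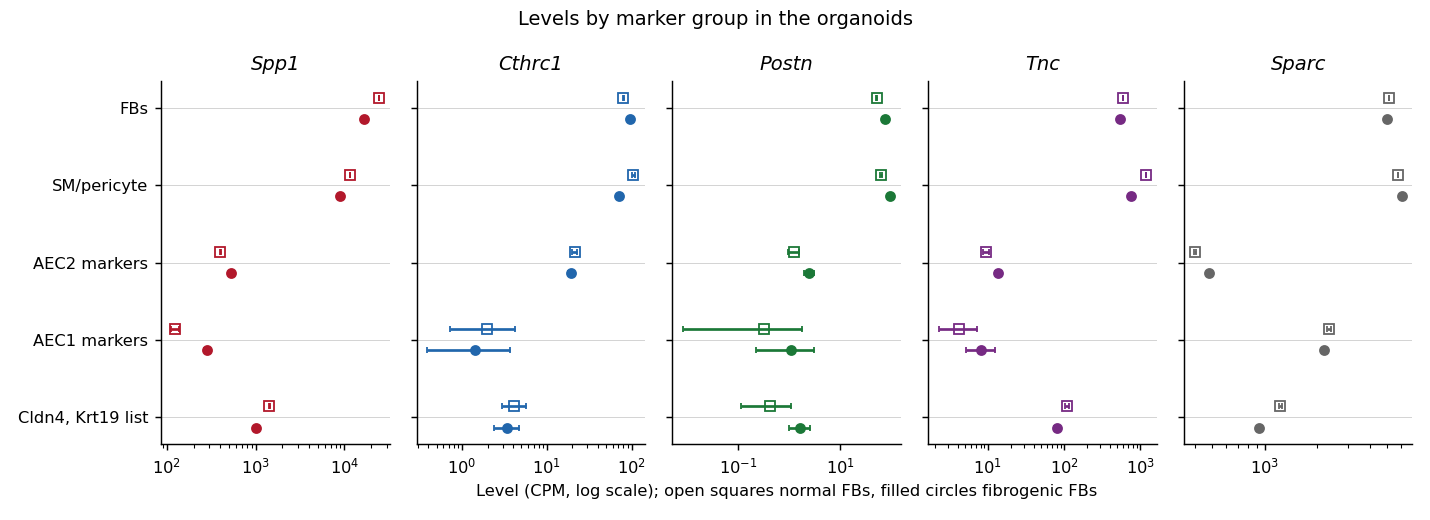
Level (CPM, log axis, its range set per gene) of each gene in gated groups of the organoids, open squares for normal and filled circles for fibrogenic FBs, with exact 95% Poisson intervals as bars. Cthrc1 stands at 21.3 and 19.5 CPM in barcodes with AEC2 markers and at 1.95 and 1.42 CPM in those with AEC1 markers, and Sparc has the opposite order.

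The protein relatives of the 5 genes were counted from a list of 26 (SIBLING, tenascin, SPARC, CCN and thrombospondin families, and the periostin relative Tgfbi, which the TGF-β list also holds). In FBs 5 of 16 tested relatives were at least 2-fold higher and 1 lower after a single dose, with a median log2 ratio of 0.34, and 4 higher and 1 lower of 16 after repetitive doses, with a median of 0.35. Ccn4, a WNT-induced CCN protein, rose from 10.1 to 99.01 CPM and from 7.15 to 40.2 CPM. Thbs2, an antiangiogenic thrombospondin, rose from 4.31 to 26.4 CPM and from 4.74 to 28.9 CPM, and Thbs4 from 0 to 199 UMIs (20.1 CPM) and from 2 to 998 UMIs (16.7 CPM). Fstl1, which has a SPARC-like domain, rose from 230 to 748 CPM and from 289 to 650.0 CPM. Of all genes, 7.26% were at least 2-fold higher and 3.61% lower after a single dose, and 6.49% and 2.32% after repetitive doses. Of the relatives that were lower, Smoc1 went from 6.55 to 1.31 CPM after 1 dose, and Ccn1, an immediate early CCN gene, fell from 1302 to 458 CPM after repetitive doses.

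Of 19 receptor genes, 3 of 13 tested were at least 2-fold higher and 1 lower after a single dose (median log2 ratio 0.44), where 7.26% of all genes were higher and 3.61% lower. After repetitive doses 2 of 12 were higher and 1 lower (0.20), against 6.49% and 2.32% of all genes. Ror2, a WNT5A receptor to which CTHRC1 binds, rose from 4.95 to 15.0 CPM and from 24.1 to 72.1 CPM. Itga8, the integrin chain that pairs with β1 to bind osteopontin and tenascin C, fell from 334 to 155 CPM and from 1133 to 524 CPM. It is also one of the LipoFB markers used here. The largest receptor ratio after a single dose was that of Itga5, a fibronectin receptor chain, from 4.95 to 24.7 CPM, and after repetitive doses that of Ror2. In the organoids 2 of 16 tested relatives were higher and 2 lower (median −0.03), and 0 of 14 receptors higher and 2 lower (0.04), where 0.447% of all genes were higher and 0.965% lower. The extremes were Ccn3 at a log2 ratio of 1.55, Tgfbi at −1.45, Ddr1, a collagen receptor, at 0.41 and Itga8 at −1.21.

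Of 10 listed TGF-β responsive genes, 3 rose after a single dose and 4 after repetitive doses, and none was lower, where 7.26% and 6.49% of all genes were higher and 3.61% and 2.32% lower. Ltbp2, named for the latent TGF-β binding protein family and also a MyoFB marker here, had log2 ratios of 4.98 and 5.43, fibronectin (Fn1) 3.02 and 1.89, and Col1a1, a fibroblast marker here, 1.78 and 2.01. The median of the list was 0.61 and 0.36, and −0.13 in the organoids, where Tgfbi was the only one past 2-fold.

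Genes with patterns most like each member were ranked by Pearson's r of log2 levels over 33 gated groups of at least 50 barcodes, among 10570 genes. The groups share libraries, depth and the gates, so r is a description. Cthrc1 came nearest to Bdnf, a neurotrophin (0.93), and to Tpbg and Baalc (0.91 each), and Postn to Unc5b, a netrin receptor (0.92), Col8a1 (0.87) and Ecscr (0.83). Tnc came nearest to Shc4 and Gpr176 (0.91 each) and to Tagln, an actin-binding protein (0.90), and Spp1 to Ufsp2 and the BMP antagonist Grem1 (0.87 each) and to Rgs16 (0.86). Sparc came nearest to Kdelr3 and the collagen chaperone Serpinh1 (0.98 each) and to Fkbp10 (0.97). Col8a1, Grem1 and Tagln are markers of the MyoFB list. Between members r was 0.84 for Cthrc1 with Tnc, 0.82 for Cthrc1 with Postn, 0.81 for Spp1 with Cthrc1 and 0.49 for Spp1 with Sparc.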

How the data were processed

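Single-cell RNA-Seq by droplet capture was done on 6 libraries, 1 per condition, each from 3 pooled mice. Per the methods, the authors aligned reads with Cell Ranger 3.0.1 to GRCm38 (mm10 in the submitters' processing notes) and Gencode M17, and the deposited values are UMI counts per gene and called barcode, without normalization. The repetitive and organoid tables list more genes than the single-dose ones. Depth was 7201081 to 238618743 UMIs per library.

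Counts were read with Python 3.11.15, numpy 2.4.6, scipy 1.17.1 and pandas 2.3.3, and figures drawn with matplotlib 3.10.9. Barcodes over 25% mitochondrial or 0.5% erythrocyte counts, or with a mitochondrial share over 3 median absolute deviations above the median of their class, were removed. Classes came from marker counts as described with the results. Doublets were not called, but barcodes in which no class led by 2 markers (28 to 704 per library) were set aside. FB, smooth muscle and pericyte, and mesothelial markers did not count against each other there. Sums of UMIs per group were scaled to CPM. Log2 ratios were taken with 1 CPM added to both groups, which understates those of low genes. Folds are ratios of CPM without that addition. Genes with at least 5 CPM in either group were counted, and a change of 2-fold was the limit. Exact Poisson and Clopper-Pearson 95% intervals cover counting error only. Only the 2-fold call was tried on simulated data, as FB sums with Poisson error. The gates, the thinning and the co-detection were not.

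The 5 genes and the lists were chosen with earlier results of these data known. Genes named beside them were those of the relatives and receptors past 2-fold in both lung experiments, the extremes of each list, the 3 most alike genes per member, the macrophage list, and markers a result turned on. TGF-β responsive genes, Atf3 and Fos were named after their values were seen.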

Additional observations from a re-analysis of the deposited data

How the results depend on the processing

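The number of members at least 2-fold higher stayed at 5, 5 and 0 in the single-dose, repetitive and organoid FBs under 9 other settings (4 markers, Leiden clusters from igraph 0.11.9 and leidenalg 0.10.2, no filter on barcodes, at least 2000 UMIs, no PMP-gated FBs, mean CPM per barcode, median of ratios, 10 CPM added, no filter on low genes) and under 2 chosen after seeing the data (smooth muscle and pericytes joined, no FB with a macrophage marker). Log2 ratios ranged in the single-dose FBs from 8.34 to 10.50 for Spp1, 2.83 to 5.92 for Cthrc1, 2.32 to 4.01 for Postn, 3.80 to 4.63 for Tnc and 1.67 to 1.70 for Sparc. In the repetitive FBs they ranged from 7.02 to 10.13, 2.01 to 4.50, 2.27 to 4.60, 1.27 to 1.51 and 1.57 to 1.72, and in the organoids from −0.70 to −0.46, 0.01 to 0.33, 0.46 to 0.69, −0.33 to −0.10 and −0.48 to 0.02. In the lung experiments the lowest ratios of Spp1, Cthrc1 and Postn came from adding 10 CPM, by its construction. Adding 10 CPM also cut the genes counted higher from 741 to 289, from 703 to 285 and from 45 to 12, and those lower from 369 to 161, from 251 to 132 and from 97 to 20, while no filter on low genes gave 1128 and 1006 higher. In the organoids the mean CPM per barcode gave 210 higher and 233 lower genes, so higher genes made up 47.4% of those past 2-fold against 31.7%, and 42.7% without PMP-gated FBs. The pairs above the product of shares numbered 9 to 10 in both bleomycin libraries, also at 1000 UMIs, unthinned, and with Spp1 counted from 10 UMIs, and relatives and receptors past 2-fold numbered 8 to 13 and 8 to 12, the upper values without a filter on low genes. Of the macrophage list, 4 in place of 7 genes were at least 2-fold higher with only the macrophage-gated barcodes outside the FB clusters, chosen after seeing the data, and the log2 ratio of Fabp5 went from 4.40 to −0.67 with fewer barcodes. Leaving out the barcode with most UMIs of a gene, also chosen after seeing the data, gave Spp1 levels of 3361 and 1069 CPM in all single-dose and repetitive bleomycin FBs. No paired analysis was possible because each condition has 1 library and no test was made. With pooled mice, no value here measures how mice differ. Few control UMIs (12 and 13 for Spp1, 2 for Cthrc1) limit the folds, and groups of 11 to 15 barcodes limit the levels of other classes in the single-dose library.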

Other observations

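Postn was also counted in endothelial-gated barcodes of PBS lungs, where it stood at 80.4 CPM [42.8 to 138] in 25 single-dose and 113 CPM [86.2 to 147] in 67 repetitive barcodes, above its PBS FB levels of 3.20 and 0.870 CPM. After 1 dose of bleomycin it stood at 409 CPM [267 to 600] in 7 such barcodes, but 24 of the 26 UMIs lay in 1 barcode, and without it the level was 52.1 CPM. The single-dose PBS level without its highest barcode was 33.0 CPM. The 34 endothelial-gated barcodes of the repetitive bleomycin library held 0 Postn UMIs, which allows up to 19.2 CPM, while their Sparc stood at 1360.4 CPM [1200.3 to 1536] against 473 CPM [416 to 537] in PBS. Before thinning 12.0% and 10.4% of the PBS and 2 of the 7 single-dose bleomycin barcodes had a Postn UMI, so few barcodes set these levels.

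Cthrc1 was found in the few epithelial-gated barcodes of the repetitive PBS lung, with 10 UMIs in 34 barcodes (17.6 CPM [8.43 to 32.3]). All epithelial-gated barcodes of the normal and fibrogenic organoids stood near it, at 16.7 and 14.1 CPM. The lung barcodes were not divided by AEC2 markers. The 23 epithelial-gated barcodes after repetitive bleomycin had 1 UMI (1.77 CPM), a ratio of 0.101 [0.00232 to 0.707]. In single-dose PBS, 80.8% of 73 Spp1 UMIs lay in 28 barcodes with markers of more than 1 class.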
